A study of Mus musculus with 8 samples.

Results

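The mitochondrial carrier genes, the Slc25a family, were followed on the 8 arrays of the study. Members were taken as all probe sets whose platform annotation held 1 gene symbol starting with Slc25a, with the probe set of highest mean kept for each gene and a mean log2 level of at least 5.63 required. The array held 50 such probe sets for 46 genes, and 40 genes passed, among 13524 genes (15791 probe sets) tested. The 6 that did not pass were Slc25a54 (mean 3.23), Slc25a31 (3.37), Slc25a2 (4.42), Slc25a21 (4.70), Slc25a48 (4.82) and Slc25a41 (5.35), while Slc25a43 (5.70) and Slc25a34 (5.77) were the dimmest inside. The filter uses the mean over all arrays and not any comparison.

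Mitochondrial carriers are small proteins, most of them of the inner mitochondrial membrane, that exchange metabolites between the cytosol and the matrix. They move ADP and ATP, phosphate, amino acids, carboxylates, nucleotides, cofactors and iron, and so set what the matrix can take up and release. In brain the aspartate/glutamate and oxoglutarate/malate carriers make up the malate-aspartate shuttle, which brings reducing equivalents from glycolysis to the respiratory chain, and the ADP/ATP translocases pass the ATP made there to the rest of the cell. A few members have other sites, such as Slc25a17 in peroxisomes and Slc25a46 in the outer membrane.

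The RNA came from thalamic tissue of both sides of the brain of male inbred C57BL/6 mice, 6 weeks old at the start, with 300 ng labelled for each Affymetrix whole-transcript array. Each of the 4 groups had 2 mice. The control group received saline every 24 hr for 4 weeks, and the MPTP group received MPTP-HCl, a toxin of dopaminergic neurons, at 20 mg/kg of free base on the same schedule. The acupoint group received the same MPTP and was needled at GB34 (3 mm deep) and LR3 (1 mm deep) in 14 sessions at intervals of 48 hr. The non-acupoint group, also given the same MPTP, was needled 3 mm deep at both hips on that schedule. All mice needled were therefore also injected with MPTP, and needling without MPTP was not among the 4 groups. Values are log2 levels as deposited, and pairs of values give mouse 1 and then mouse 2 of a group.

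Mouse 1 of the MPTP group and mouse 1 of the non-acupoint group gave arrays that stood apart. These 2 correlated with each other at r = 0.982 over probe sets and with the other arrays at 0.905 to 0.936, and the other 6 correlated among themselves at 0.981 to 0.995. Each result is therefore given on all 8 arrays and on the other 6, which leaves 1 array each in the MPTP and non-acupoint groups, whose spread is then taken from the control and acupoint mice. All 6 markers of thalamic neurons looked at were above the brightness filter, as were 6 of 6 markers of the choroid plexus and 5 of 6 of dopaminergic neurons.

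The carriers were among the genes that differed on the 2 arrays that stood apart. On these arrays 18 of the 40 members (45%) were below all of the other 6 arrays, against 27.9% of all genes, and 5 members (12.5%) were above all of them, against 28.3%. Counting both directions, 57.5% of members and 56.1% of all genes lay to one side, so members fell outside the range of the other arrays about as often as any gene, with more of them on the low side. The median shift, the mean of the 2 arrays minus the mean of the other 6, was -0.16 over the members and -0.01 over all genes. These 2 arrays were singled out on all genes, so the shifts are descriptions and carry no test. In bulk tissue, fewer cells of a type and less RNA per cell cannot be told apart.

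**Figure D1:**
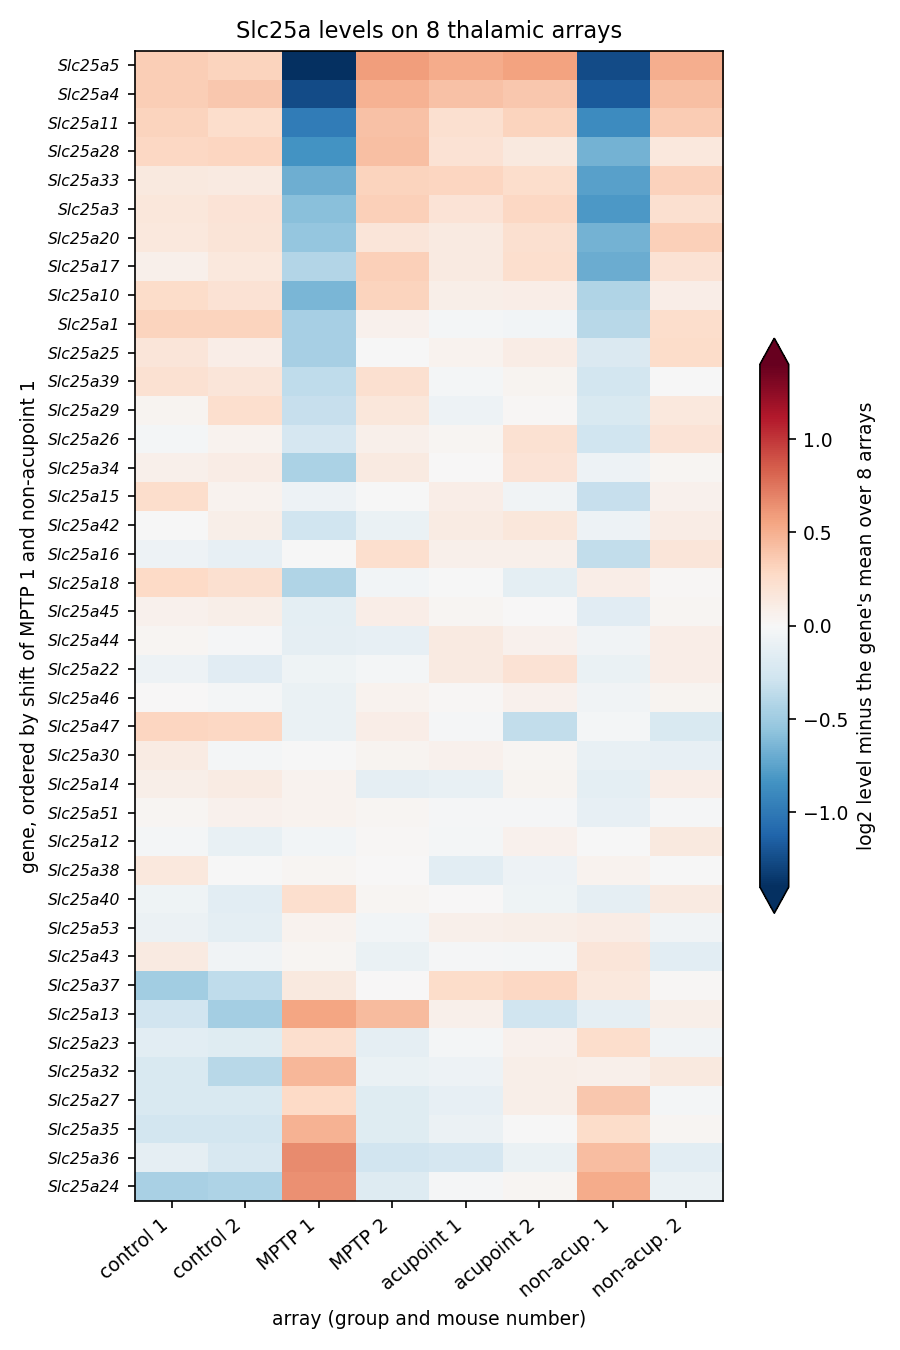
Log2 level of each of the 40 Slc25a genes (vertical axis) minus that gene's mean over the 8 arrays (horizontal axis, group and mouse number), as colour, ordered by the shift of MPTP 1 and non-acupoint 1. The top genes, from Slc25a5 and Slc25a4 to Slc25a1, are low on these 2 arrays, and the bottom ones, Slc25a36 and Slc25a24, are high on them. The other 6 arrays range by under 0.3 log2 units in 29 of the 40 genes, and by 0.92 in Slc25a13.

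The ADP/ATP translocases and the phosphate carrier supply the ATP synthase and export its product, and the 2 translocases held the largest shifts among the members tested. Slc25a5, ADP/ATP translocase 2, had log2 levels of 10.77 and 10.74 in the controls, 8.86 and 11.01 in MPTP mice, 10.95 and 10.99 in acupoint mice and 9.18 and 10.94 in non-acupoint mice. Slc25a4, ADP/ATP translocase 1, the form of heart, muscle and brain, stood at 12.47 and 12.49 in control, 10.86 and 12.61 in MPTP, 12.53 and 12.50 in acupoint and 10.94 and 12.54 in non-acupoint mice. Slc25a3, the phosphate carrier, had log2 levels of 10.57 and 10.60 in the controls, 9.83 and 10.75 in MPTP mice, 10.61 and 10.71 in acupoint mice and 9.61 and 10.64 in non-acupoint mice. In each of the 3 genes the 2 arrays that stood apart were far below the other 6, which lay within 0.28, 0.14 and 0.18 log2 units of each other. The shift was -1.88 for Slc25a5, or 3.69-fold lower, -1.62 for Slc25a4, or 3.07-fold lower, and -0.93 for Slc25a3, or 1.90-fold lower. The other probe sets annotated to Slc25a5 gave shifts of -2.06 and -1.54. Slc25a5 has near-identical copies in the genome, so which copy each of its probe sets reads is uncertain.

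The calcium-regulated carriers exchange ATP-Mg for phosphate and did not share 1 direction. Slc25a24 stood at 5.88 and 5.90 in control, 6.97 and 6.15 in MPTP, 6.32 and 6.36 in acupoint and 6.85 and 6.24 in non-acupoint mice. Slc25a25 had log2 levels of 8.60 and 8.53 in the controls, 7.97 and 8.43 in MPTP mice, 8.49 and 8.53 in acupoint mice and 8.23 and 8.69 in non-acupoint mice. Slc25a24 was highest on the 2 arrays that stood apart, with a shift of 0.77, or 1.70-fold higher, while Slc25a25 was lowest on them, with a shift of -0.44. Slc25a23 lay above the other 6 arrays as well, with a shift of 0.31. Of the 6 adenine nucleotide and phosphate carriers, 4 were thus below and 2 above, and none overlapped.

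The 4 carriers of carboxylates, oxo acids and carnitine were all below on both arrays, with a median shift of -0.75. Slc25a11, the oxoglutarate/malate carrier of the malate-aspartate shuttle, stood at 9.90 and 9.83 in control, 8.60 and 9.99 in MPTP, 9.81 and 9.89 in acupoint and 8.70 and 9.94 in non-acupoint mice. Slc25a1, the citrate carrier that exports acetyl units for lipid synthesis, had log2 levels of 9.01 and 9.01 in the controls, 8.23 and 8.76 in MPTP mice, 8.68 and 8.66 in acupoint mice and 8.31 and 8.94 in non-acupoint mice. Slc25a20, the carnitine/acylcarnitine carrier of fatty acid oxidation, stood at 7.96 and 7.99 in control, 7.27 and 7.98 in MPTP, 7.94 and 8.03 in acupoint and 7.14 and 8.15 in non-acupoint mice. For Slc25a11 the 2 arrays lay more than 1 log2 unit below all others, and the shift was -1.24, or 2.37-fold lower. Slc25a1 was highest in both controls, and its shift was -0.57. The shift of Slc25a20 was -0.80, and that of Slc25a10, the dicarboxylate carrier, was -0.70.

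The 11 members grouped as amino acid carriers moved less on these arrays, with shifts from -0.41 to 0.28 and a median of -0.12. The group also holds Slc25a39 and Slc25a40, carriers of glutathione, and Slc25a26, a carrier of S-adenosylmethionine. Slc25a12, aralar, a calcium-stimulated aspartate/glutamate exchanger of the malate-aspartate shuttle and the main such form of neurons, had log2 levels of 10.49 and 10.42 in the controls, 10.48 and 10.54 in MPTP mice, 10.50 and 10.58 in acupoint mice and 10.51 and 10.66 in non-acupoint mice. Slc25a22, a glutamate/proton symporter, stood at 9.18 and 9.10 in control, 9.19 and 9.24 in MPTP, 9.38 and 9.47 in acupoint and 9.17 and 9.35 in non-acupoint mice. Slc25a44, which takes branched-chain amino acids into mitochondria, had log2 levels of 9.11 and 9.06 in the controls, 8.96 and 8.97 in MPTP mice, 9.20 and 9.14 in acupoint mice and 9.03 and 9.17 in non-acupoint mice. Slc25a12 varied by only 0.25 log2 units over all 8 arrays, and its 2 apart arrays lay within the range of the other 6. Slc25a22 was highest in both acupoint mice. The members below on both apart arrays were Slc25a15, Slc25a26, Slc25a29 and Slc25a39, with shifts from -0.41 to -0.27, and 7 of 11 overlapped.

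Carriers of other nucleotides, coenzymes and vitamins were spread over both directions. Slc25a33 and Slc25a36, both pyrimidine nucleotide carriers, differed in direction, with shifts of -0.96 and 0.73, and the second probe set of Slc25a36 gave 0.74. The peroxisomal Slc25a17 had a shift of -0.74. Slc25a42, the coenzyme A carrier, stood at 7.39 and 7.48 in control, 7.12 and 7.31 in MPTP, 7.51 and 7.56 in acupoint and 7.33 and 7.51 in non-acupoint mice. Slc25a51, the carrier of NAD+, had log2 levels of 8.70 and 8.74 in the controls, 8.72 and 8.70 in MPTP mice, 8.66 and 8.65 in acupoint mice and 8.55 and 8.66 in non-acupoint mice. Slc25a32, a folate and flavin carrier, stood at 7.41 and 7.23 in control, 8.08 and 7.53 in MPTP, 7.55 and 7.69 in acupoint and 7.69 and 7.75 in non-acupoint mice. Slc25a51 stayed within 0.18 log2 units over all 8 arrays. Slc25a32 was lowest in both controls and highest in MPTP mouse 1. Slc25a16 overlapped the other arrays, with a shift of -0.23.

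The mitoferrins, which bring iron into the matrix for heme and iron-sulfur cluster synthesis, differed. Slc25a28, mitoferrin 2, had log2 levels of 8.17 and 8.18 in the controls, 7.04 and 8.31 in MPTP mice, 8.09 and 8.02 in acupoint mice and 7.22 and 8.03 in non-acupoint mice. Slc25a37, mitoferrin 1, stood at 7.54 and 7.68 in control, 8.17 and 8.04 in MPTP, 8.29 and 8.32 in acupoint and 8.18 and 8.05 in non-acupoint mice. Slc25a28 was lowest on the 2 arrays that stood apart, 2.00-fold below the other 6. Slc25a37 did not separate them, since both lay among the other injected mice, and its controls were the 2 lowest values.

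The relatives of the uncoupling proteins and the outer membrane member varied little, with 1 exception. Slc25a14, a relative of the uncoupling proteins, also called UCP5, had log2 levels of 8.50 and 8.54 in the controls, 8.48 and 8.29 in MPTP mice, 8.32 and 8.46 in acupoint mice and 8.28 and 8.52 in non-acupoint mice. Slc25a30, another such relative, stood at 7.19 and 7.05 in control, 7.07 and 7.12 in MPTP, 7.13 and 7.10 in acupoint and 6.97 and 6.97 in non-acupoint mice. Slc25a27, the neuronal relative UCP4, had log2 levels of 8.38 and 8.38 in the controls, 8.87 and 8.43 in MPTP mice, 8.47 and 8.67 in acupoint mice and 8.97 and 8.57 in non-acupoint mice. Slc25a14 and Slc25a30 kept within 0.26 and 0.22 log2 units over the 8 arrays, while both apart arrays were the highest for Slc25a27, with a shift of 0.44. Slc25a46, an outer membrane protein of mitochondrial fission and cristae upkeep, stood at 9.83 and 9.80 in control, 9.74 and 9.88 in MPTP, 9.85 and 9.88 in acupoint and 9.78 and 9.86 in non-acupoint mice. Slc25a46 had the smallest range over the 8 arrays of the members tested, 0.14, yet its 2 apart arrays were its lowest. Among the 6 members with no role assigned here, Slc25a34 (-0.34) and Slc25a45 (-0.20) were below on both arrays, Slc25a35 (0.49) was above, and Slc25a43, Slc25a47 and Slc25a53 overlapped, with shifts from -0.08 to 0.14. Over the other 6 arrays 29 of the 40 members had a range under 0.3 log2 units, against 9 of 40 over all 8.

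**Figure D2:**
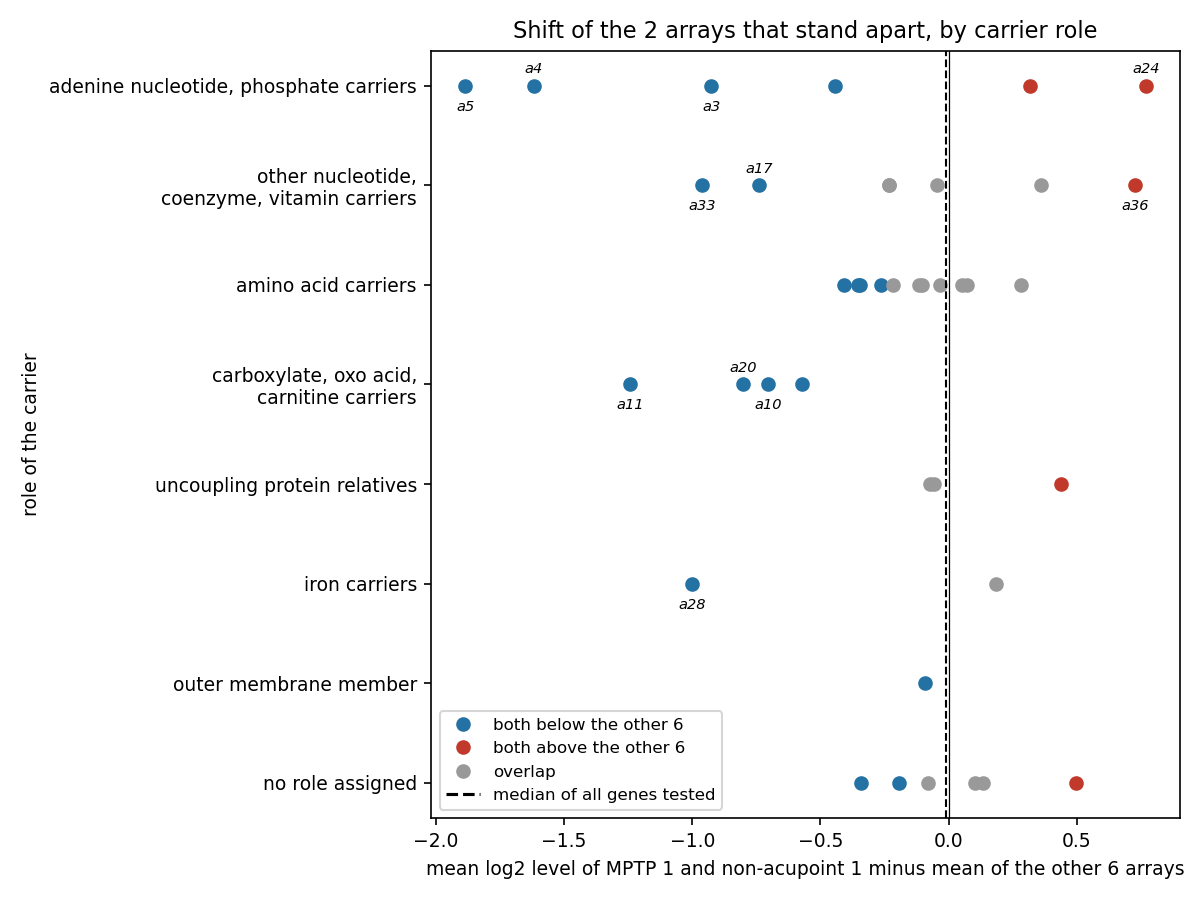
Shift of each Slc25a gene (points), the mean log2 level of MPTP 1 and non-acupoint 1 minus the mean of the other 6 arrays (horizontal axis), by role of the carrier (vertical axis). Adenine nucleotide and phosphate carriers run from -1.88 to 0.77 and all 4 carboxylate, oxo acid and carnitine carriers lie at -0.57 or below. Members grouped as amino acid carriers, among them Slc25a26, Slc25a39 and Slc25a40, stay between -0.41 and 0.28. The dashed median of all genes is at -0.01.

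Promoters are shown for members at both ends of this pattern and for Slc25a13, the member of smallest p in MPTP against control. RefSeq windows on GRCm38.p6 were matched for 32 of the 40 members by gene symbol, and the 250 bases before the start of transcription were read. The windows not matched were those of Slc25a26, Slc25a27, Slc25a32, Slc25a35, Slc25a37, Slc25a44, Slc25a46 and Slc25a51. Capitals mark GGGCGG, the GC box bound by Sp1-type factors, or CCAAT, the CCAAT box, on either strand, so that CCGCCC and ATTGG are the same motifs read on the other strand. Each line gives the gene, the place and strand of the window and its sequence 5′ to 3′ in the direction of transcription.
Slc25a5, chrX:36795347-36795596, plus strand: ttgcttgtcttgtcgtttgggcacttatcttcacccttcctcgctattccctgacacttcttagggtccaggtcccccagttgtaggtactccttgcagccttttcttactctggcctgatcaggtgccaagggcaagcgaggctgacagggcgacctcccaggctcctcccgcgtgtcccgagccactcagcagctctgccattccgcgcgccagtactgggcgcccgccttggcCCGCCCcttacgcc
Slc25a4, chr8:46211063-46211312, minus strand: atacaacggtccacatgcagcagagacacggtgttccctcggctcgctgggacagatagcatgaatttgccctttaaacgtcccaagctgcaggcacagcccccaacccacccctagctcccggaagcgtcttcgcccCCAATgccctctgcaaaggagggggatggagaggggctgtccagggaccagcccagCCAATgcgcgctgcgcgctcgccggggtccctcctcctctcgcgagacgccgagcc
Slc25a11, chr11:70647040-70647289, minus strand: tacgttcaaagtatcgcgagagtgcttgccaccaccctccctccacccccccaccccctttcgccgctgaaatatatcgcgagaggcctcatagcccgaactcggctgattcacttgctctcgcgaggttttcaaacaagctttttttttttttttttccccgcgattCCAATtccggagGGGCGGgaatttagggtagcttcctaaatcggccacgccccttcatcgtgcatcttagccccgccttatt
Slc25a24, chr3:109122899-109123148, plus strand: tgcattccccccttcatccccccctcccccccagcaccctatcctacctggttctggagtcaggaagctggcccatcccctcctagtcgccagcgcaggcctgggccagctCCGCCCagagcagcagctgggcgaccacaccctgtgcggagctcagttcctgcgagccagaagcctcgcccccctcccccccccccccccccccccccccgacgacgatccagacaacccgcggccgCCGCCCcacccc
Slc25a13, chr6:6217174-6217423, minus strand: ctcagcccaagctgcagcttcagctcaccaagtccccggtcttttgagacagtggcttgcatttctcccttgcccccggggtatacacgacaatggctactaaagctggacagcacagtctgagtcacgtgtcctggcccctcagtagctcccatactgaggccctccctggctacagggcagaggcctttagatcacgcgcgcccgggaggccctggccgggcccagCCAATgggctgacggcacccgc

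The GC box was found in 22 of 32 member windows (68.8%), against 32.9% of 27025 windows of all genes in the table, and the CCAAT box in 15 (46.9%), against 34.5%. The GC box was in 14 of 16 windows of members below on both apart arrays, in 3 of 3 of those above, and in 5 of 13 of those that overlapped. The windows above therefore carry it on both sides of the split, in Slc25a5 and Slc25a24 alike, and Slc25a4 has CCAAT boxes and no GC box in this window. TATAAA was in 1 of 32 windows (3.13%), against 13.0%, and CCGGAAGT and AAGGTCA, sequences that ETS and estrogen-related receptors bind, were each in 1. The palindromic NRF1 consensus was in 0 of 32, against 0.781% of all windows. Member windows were richer in G and C than the rest, with a median of 59.2% against 52%. That median was 60.6% for members below on both apart arrays, 64.4% for those above and 54.4% for those that overlapped. The 27025 windows of all genes were not limited to genes that passed the brightness filter, as the members were. The parts of this filter and of G and C content in the motif counts were not tested. These are matches of letters, not sites shown to be bound.

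The 2 arrays that stood apart were low in several other lists of mitochondrial genes too. Import proteins that bring carriers to the inner membrane had a median shift of -0.74, with 12 of 14 below on both arrays, among them Tomm20 (-1.30), a receptor of the outer membrane, and Timm8b (-1.48), a chaperone of the space between the membranes. ATP synthase subunits had a median of -0.86, with 11 of 14 below, and complex I subunits one of -0.52, with 23 of 34 below. Other transport proteins of the mitochondrial membranes had a median of -0.34, with 11 of 19 below and 5 above, led by Mpc1 (-1.82), a subunit of the pyruvate carrier. Regulators of mitochondrial biogenesis had a median of 0.005, with Ppargc1a, a coactivator, at 1.22 and the nuclear receptor gene Esrra at -0.96. Cytosolic ribosomal proteins, which are not mitochondrial, had a median of -0.51, with 8 of 12 below, and general markers of neurons -0.32. Markers of single regions differed in sign: striatal ones had a median of 0.82 with 5 of 5 positive and thalamic ones 0.46 with 6 of 6. Dopaminergic ones had -0.83 with 4 of 5 negative and hypothalamus ones -0.60 with 5 of 6. Only 2 of 5 striatal and 2 of 6 thalamic ones were above on both arrays. Of dopaminergic and hypothalamus ones, 0 of 5 and 0 of 6 were below on both. Dopaminergic median deviations were 1.88 and 1.65 in controls, -1.21 and -1.24 in acupoint mice, and -0.92 and -0.67 on the 2 arrays. Thalamic ones were -0.68 and -0.58, 0.34 and 0.29, and 0.29 and 0.39. In these 2 lists the acupoint mice thus lay nearer the 2 arrays than the controls did. RNA quality values were not used here, and their part in the shift was not tested.

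**Figure D3:**
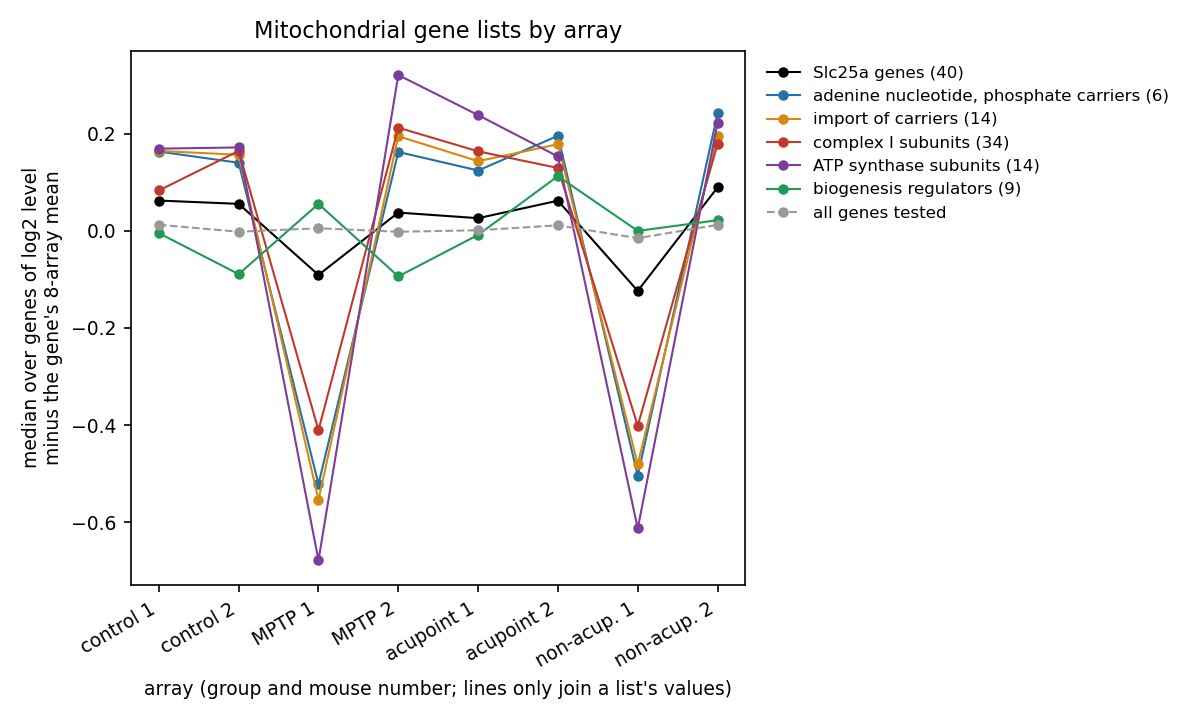
Median over the genes of a list of the log2 level minus each gene's 8-array mean (vertical axis), by array (horizontal axis). ATP synthase, complex I, import genes and the adenine nucleotide and phosphate carriers lie between -0.68 and -0.40 on MPTP 1 and non-acupoint 1, whereas the 40 Slc25a genes are at -0.09 and -0.12 and biogenesis regulators and all genes do not dip in this way.

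MPTP mice were set against controls first, to see what the toxin changed. Slc25a13, which encodes citrin, an aspartate/glutamate exchanger like Slc25a12, was the member with the clearest separation: it was 1.83-fold higher in MPTP mice than in controls. Slc25a13 had log2 levels of 7.14 and 6.93 in the controls, 7.97 and 7.85 in MPTP mice, 7.48 and 7.13 in acupoint mice and 7.28 and 7.49 in non-acupoint mice. Both MPTP mice were above all 6 other mice, and the groups do not overlap. Controls averaged 7.04 ± 0.15 and MPTP mice 7.91 ± 0.08 (SD, n = 2), a log2 difference of 0.87 ± 0.18 (SE) with a limma adjusted p of 0.500 (unadjusted p = 0.0019). On the 6 arrays the difference was 0.82, with an adjusted p of 0.112, and over all alternatives it ran from 0.77 to 0.98, with adjusted p from 0.0915 to 1.00. Slc25a13 thus did not pass the threshold. Its direction was the same throughout, which leaving out mice could not change in groups that do not overlap.

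Slc25a37 and Slc25a32 were higher in both MPTP mice than in both controls, and Slc25a18 was lower. The difference of Slc25a37 was 0.49 ± 0.13 (SE), or 1.41-fold, with a limma adjusted p of 0.708, and 0.43 on the 6 arrays. Slc25a18, the second mitochondrial glutamate carrier, known as the astrocytic form, stood at 9.42 and 9.36 in control, 8.71 and 9.10 in MPTP, 9.13 and 9.00 in acupoint and 9.23 and 9.15 in non-acupoint mice. MPTP mouse 1 was the lowest of the 8 arrays and both controls were the highest. Its difference was -0.48 ± 0.16 (SE), with a limma adjusted p of 0.714, and it was -0.29 on the 6 arrays. Slc25a24 (0.67) and Slc25a32 (0.49) were higher and Slc25a1 (-0.52) and Slc25a25 (-0.36) lower, and on the 6 arrays these were 0.26, 0.21, -0.25 and -0.14. Without MPTP mouse 2 they were 1.08, 0.77, -0.78 and -0.59. Slc25a47, a member best known from liver, had log2 levels of 6.49 and 6.48 in the controls, 6.09 and 6.28 in MPTP mice, 6.17 and 5.84 in acupoint mice and 6.16 and 5.97 in non-acupoint mice. Slc25a47 was lower by -0.30 in MPTP mice and was highest in both controls.

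Over the family, 0 of 40 members passed an adjusted p under 0.05 in MPTP against control by limma, where 0% of genes did, and 0 passed on the 6 arrays, where 0.333% of genes did. At an unadjusted p under 0.05, 2 members were higher, against 3.49% of all genes, and 1 was lower, against 2.10%. The groups did not overlap in 11 of 40 members that were higher, against 18.6% of all genes, and in 8 of 40 that were lower, close to the 20.1% of all genes. In sign, 13 members were higher and 27 lower, with a median of -0.11 against -0.01 over all genes. On the 6 arrays 27 were higher and the median was 0.05, so the direction of the median rested on MPTP mouse 1. At an unadjusted p under 0.05 the 6 arrays gave 5 higher (7.63% of all genes) and 2 lower (8.91%). Without MPTP mouse 2, an array that stood apart became the whole MPTP group. The share of all genes was not computed there, so no count is given.

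Markers of other tissue also differed between the groups, each list in its own order. All 6 of 6 choroid plexus markers stood higher after MPTP than after saline, with a median of 1.96, and their median deviation by array was -0.72 to -0.61 in controls, 1.31 to 1.47 in MPTP mice, 0.71 to 1.48 in acupoint mice and -1.68 to -1.54 in non-acupoint mice. All 6 of 6 markers of thalamic neurons were higher, with a median of 0.84, and theirs was -0.68 to -0.58 in controls and 0.02 to 0.39 in the injected mice. Markers of dopaminergic neurons were lower in 5 of 5, with a median of -1.77, and those of the hypothalamus in 6 of 6, with a median of -1.17, and on the 6 arrays these medians were -0.47 and -0.50. Astrocyte markers, listed beside Slc25a18, had 5 of 6 lower, with a median of -0.23 (-0.13 on the 6 arrays, with 2 of 6 higher). Their median deviations were 0.08 to 0.09 in controls and -0.16 to -0.04 in MPTP mice. The part of these lists in the results was not tested.

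**Figure D4:**
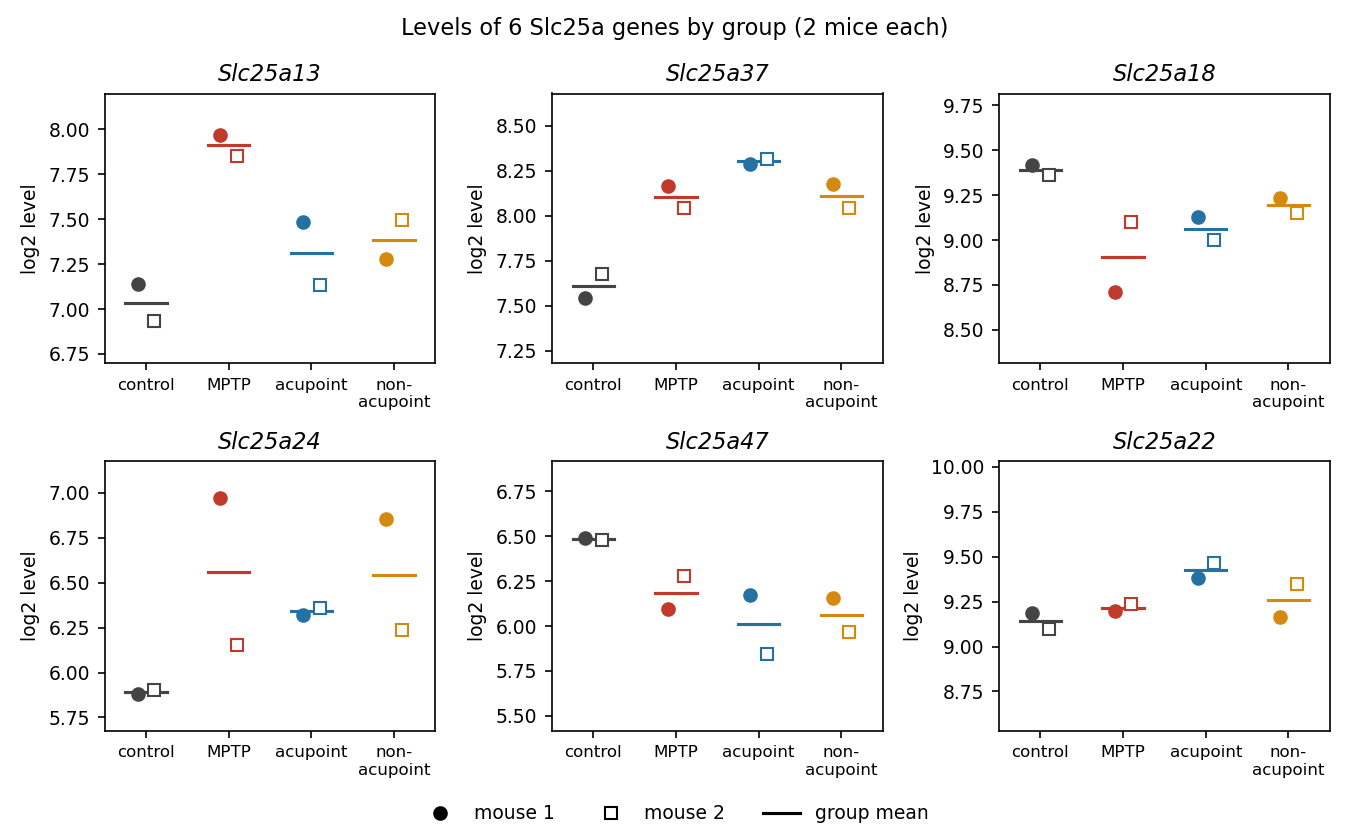
Log2 level (vertical axis, own scale in each panel) of 6 Slc25a genes by group, with mouse 1 as a filled circle, mouse 2 as an open square and the group mean as a line. Slc25a13 is highest in both MPTP mice, Slc25a37 lowest and Slc25a18 and Slc25a47 highest in both controls, Slc25a22 highest in both acupoint mice, and the 2 values far above for Slc25a24 are MPTP mouse 1 and non-acupoint mouse 1.

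The next comparison asked what needling at the acupoints changed in mice given MPTP. Slc25a13 was lower in both acupoint mice than in both MPTP mice, with a mean of 7.31 ± 0.25 (SD, n = 2) and a difference of -0.60 ± 0.18 (SE), or 1.52-fold lower, with a limma adjusted p of 0.889. The 6-array difference was -0.54, and the alternatives ran from -0.77 to -0.43. This comparison and the first share the MPTP mice, so a high level in those mice enters both. Slc25a42 (0.32), Slc25a44 (0.21), Slc25a22 (0.21) and Slc25a37 (0.20) were higher in both acupoint mice than in both MPTP mice. Slc25a40, a glutathione carrier, stood at 7.69 and 7.60 in control, 7.98 and 7.77 in MPTP, 7.75 and 7.68 in acupoint and 7.62 and 7.87 in non-acupoint mice. Slc25a38, a glycine carrier used in heme synthesis, had log2 levels of 9.08 and 8.93 in the controls, 8.96 and 8.95 in MPTP mice, 8.80 and 8.86 in acupoint mice and 8.99 and 8.94 in non-acupoint mice. Slc25a40 was lower by -0.16, Slc25a38 by -0.12 and Slc25a51 by -0.06, without overlap but on small differences. Without MPTP mouse 1 the difference of Slc25a40 was -0.06, and without MPTP mouse 2 it was -0.26.

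By limma 0 of 40 members passed the adjusted threshold in acupoint against MPTP on 8 arrays (0% of genes) or on the 6 (0.0222%), with 0 higher and 1 lower at an unadjusted p under 0.05, against 0.673% and 0.769% of all genes. Groups did not overlap in 6 higher (14.8%) and 4 lower (12.9%) members. In sign 28 members were higher, with a median of 0.07 against 0.00 over all genes. Without the 2 apart arrays 18 were higher and the median was -0.02, so this direction too rested on MPTP mouse 1. The unadjusted counts on the 6 arrays were 2 higher (9.66% of all genes) and 4 lower (5.63%). Choroid plexus markers were lower in 5 of 6, with a median of -0.29, and astrocyte markers higher in 6 of 6, with a median of 0.14. Dopaminergic markers were lower in 4 of 5, with a median of -1.36 (-2.53 on the 6 arrays, where 2 passed the adjusted threshold by limma). Hypothalamus markers were lower in 6 of 6, with a median of -0.33 (-0.63 on the 6 arrays), and striatal markers in 5 of 5, with a median of -0.73 that was 0.39 on the 6 arrays. Their part was not tested.

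The same needling away from the acupoints was set against MPTP alone. Slc25a13 was lower again, with a non-acupoint mean of 7.39 ± 0.15 (SD, n = 2) and a difference of -0.52 ± 0.18 (SE), with a limma adjusted p of 1.00 (unadjusted p = 0.022). The 6 arrays gave -0.36. Slc25a18 (0.29), Slc25a42 (0.21) and Slc25a44 (0.14) were higher in both non-acupoint mice, and Slc25a30 (-0.13) and Slc25a51 (-0.11) lower. For Slc25a18 the 6-array difference was 0.05, so its higher value rested on MPTP mouse 1, the lowest array. The difference of Slc25a42 was 0.11 without MPTP mouse 1 and 0.12 without non-acupoint mouse 2, that of Slc25a44 was 0.07 without non-acupoint mouse 2, and that of Slc25a51 was -0.05 without non-acupoint mouse 1.

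By limma 0 of 40 members passed in non-acupoint against MPTP, where 0.0518% of genes and 0.0443% of probe sets did, and 0 were higher (0.288%) and 1 lower (1.32%) at an unadjusted p under 0.05. Groups did not overlap in 3 higher (5.72%) and 3 lower (7.09%) members. The median was 0.01, and both groups hold 1 array that stood apart. Leaving out MPTP mouse 1 gave -0.11, non-acupoint mouse 1 gave 0.12 and non-acupoint mouse 2 gave -0.12, and on the 6 arrays it was -0.00, with 1 member higher (8.87% of all genes) and 1 lower (6.50%) at an unadjusted p under 0.05. Choroid plexus markers were lower in 6 of 6, with a median of -3.03. Dopaminergic markers were lower in 5 of 5, with a median of -0.39 (-1.29 on the 6 arrays), striatal markers in 5 of 5, with a median of -0.53 that was 0.54 on the 6 arrays, and hypothalamus markers were higher in 6 of 6, with a median of 0.47. Astrocyte markers, listed beside Slc25a18, were higher in 6 of 6, with a median of 0.11 (0.16 on the 6 arrays). The part of these markers in the values was not tested.

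The comparison of acupoint with non-acupoint needling asked whether the place mattered. Slc25a13 did not separate these groups, which overlapped, and the difference was -0.08 ± 0.18 (SE). Slc25a37 (0.19), Slc25a22 (0.17) and Slc25a30 (0.15) were higher in both acupoint mice, and Slc25a38 (-0.14) and Slc25a18 (-0.13) lower. Without non-acupoint mouse 1 the difference of Slc25a22 was 0.07, and without non-acupoint mouse 2 it was 0.26. Without acupoint mouse 2 that of Slc25a18 was -0.06. Slc25a35 stood at 5.83 and 5.83 in control, 6.57 and 5.92 in MPTP, 6.01 and 6.08 in acupoint and 6.35 and 6.12 in non-acupoint mice. Slc25a35 was lower by -0.19, and without non-acupoint mouse 1 by -0.08. Slc25a5 was 0.91 ± 0.78 (SE) higher without overlap, and without non-acupoint mouse 1 this was 0.03.

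By limma 0 of 40 members passed in acupoint against non-acupoint (0% of genes), and 0 were higher (1.18%) and 0 lower (0.858%) at an unadjusted p under 0.05. Groups did not overlap in 5 higher (14.4%) and 3 lower (18.1%) members. The median was 0.06 on 8 arrays, 0.16 without non-acupoint mouse 2 and -0.01 on the 6 arrays, with 1 higher (4.75%) and 1 lower (4.55%) at an unadjusted p under 0.05 there. Choroid plexus markers were higher in 6 of 6, with a median of 2.68. Hypothalamus markers were lower in 6 of 6, with a median of -1.08, and dopaminergic ones in 4 of 5, with a median of -0.97, and the part of these lists was not tested.

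All 3 injected groups were also set against control, a comparison added after the values were seen. Slc25a37 was higher in all 6 injected mice than in both controls, with group means of 7.61 ± 0.10 in controls, 8.11 ± 0.09 in MPTP mice, 8.30 ± 0.02 in acupoint mice and 8.11 ± 0.09 in non-acupoint mice (SD, n = 2). The difference was 0.56 ± 0.11 (SE), or 1.48-fold, with a limma adjusted p of 0.240 on 8 arrays, and 0.52 ± 0.07 with an adjusted p of 0.018 on the 6. Slc25a24 was higher by 0.59 ± 0.25 (SE), with a limma adjusted p of 0.708 on 8 arrays, and by 0.35 ± 0.06 with an adjusted p of 0.034 on the 6. Both genes thus passed only where the 2 arrays that stood apart were left out, save that Slc25a37 also passed with weighted arrays (adjusted p = 0.040). Over the alternatives the difference of Slc25a37 ran from 0.49 to 0.63 (adjusted p 0.018 to 1.00) and that of Slc25a24 from 0.35 to 0.73 (adjusted p 0.034 to 1.00).

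In 7 members all injected mice were above both controls, against 10.6% of all genes, namely Slc25a37, Slc25a32, Slc25a24, Slc25a35, Slc25a27, Slc25a23 and Slc25a53. In 3 members, Slc25a47, Slc25a18 and Slc25a1, all were below, against 9.58%. Slc25a47 was lower by -0.40 and Slc25a18 by -0.33 on 8 arrays, and by -0.40 and -0.28 on the 6, with limma adjusted p on the 6 of 0.081 and 0.076. By limma 0 of 40 members passed on 8 arrays (0% of genes), with 2 higher (4.24%) and 2 lower (3.21%) at an unadjusted p under 0.05. On the 6 arrays 2 of 40 members passed, where 5.66% of genes did, and 9 were higher (13.5%) and 3 lower (12.2%) at an unadjusted p under 0.05. The median was -0.08 on 8 arrays and 0.06 on 6. Choroid plexus markers were higher in 5 of 6, with a median of 0.89, and 0 of 6 were without overlap. Their median deviation was -0.72 to -0.61 in controls but -1.68 to -1.54 in non-acupoint mice, so that median joins opposite directions. Markers of thalamic neurons were higher in 6 of 6, with a median of 0.85, and those of dopaminergic neurons lower in 5 of 5, with a median of -2.35. Hypothalamus markers were lower in 6 of 6, with a median of -1.20 (-0.70 on the 6 arrays). Astrocyte markers, listed beside Slc25a18, had 4 of 6 lower, with a median of -0.12 (-0.03 on the 6 arrays, with 3 of 6 higher). The part of these lists in these values was not tested.

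**Figure D5:**
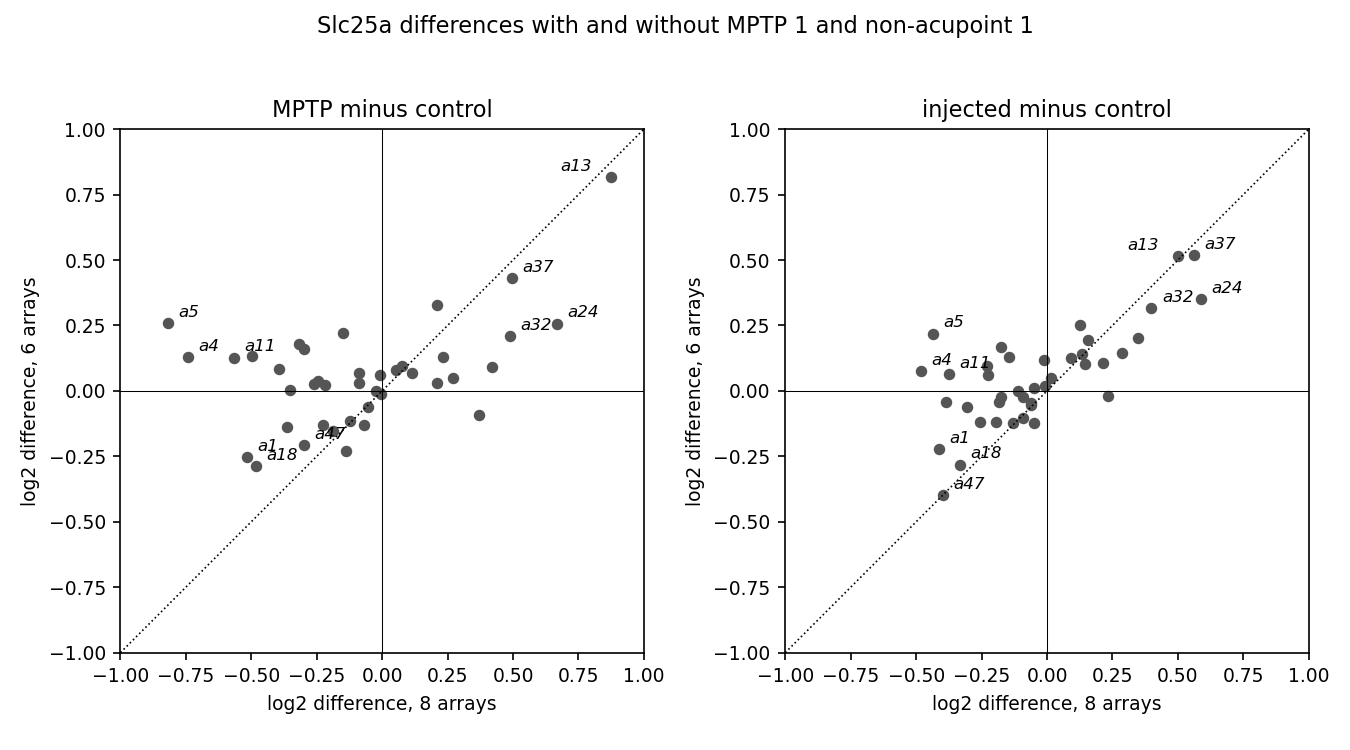
Log2 difference of each of the 40 Slc25a genes on all 8 arrays (horizontal axis) against that on the 6 arrays without MPTP 1 and non-acupoint 1 (vertical axis), for MPTP minus control (left) and the 3 injected groups minus control (right), with the dotted line of equal values. Slc25a13, Slc25a37, Slc25a18 and Slc25a47 keep their side, while Slc25a5 goes from -0.82 to 0.26 and Slc25a4 from -0.74 to 0.13 in the left panel.

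Across the 4 groups at once, 0 of 40 members passed the limma F test after adjustment (0% of genes), and 2, Slc25a13 and Slc25a37, had an unadjusted p under 0.05, against 3.82% of all genes. Members spread between the 2 mice of a group by a median SD of 0.04 in controls, 0.27 in MPTP mice, 0.05 in acupoint mice and 0.19 in non-acupoint mice, and all genes by 0.06, 0.27, 0.07 and 0.21. The groups holding an array that stood apart thus had several times the spread of the others, and all 4 share 1 estimate of it in the fit. The titles number separate mice, and p-values measure the spread between these 8 mice only, whose small number limits the precision of every value.

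Other genes of the mitochondrion were counted in the same way. In MPTP against control, 13 of 14 import genes, 26 of 34 complex I subunits, 11 of 14 ATP synthase subunits and 11 of 19 other transport proteins were lower, with medians of -0.31, -0.26, -0.35 and -0.12, where 6981 of all 13524 genes were lower. These medians became 0.05, 0.09, 0.11 and 0.07 on the 6 arrays. By limma 0 genes of these lists passed the adjusted threshold in that comparison, and the complex I subunit gene Ndufa2 (-0.41) was the 1 gene at an unadjusted p under 0.05; its difference on the 6 arrays was -0.21. Cpt1a, the gate of fatty acid entry, was higher by 0.67 ± 0.28 (SE) in MPTP mice, and by 0.30 without MPTP mouse 1, the higher of the 2 at 8.64 against 7.90. The relatives of the family without an Slc25a symbol were Ucp3, Mtch1 and Mtch2, with differences of 0.18, -0.38 and 0.03, which were 0.35, -0.01 and 0.15 on the 6 arrays.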

How the data were processed

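Total RNA of thalamic tissue was hybridised to 1 array per mouse. The deposited values are log2 levels, made by the authors with Affymetrix Expression Console and RMA, per the submitters' processing notes, with versions not given in the sources used here. RMA corrects background, normalizes between arrays and summarizes probes, so differences of dim probe sets are compressed. Log2 medians per array lay between 6.18 and 6.29.

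The platform annotation named the probe sets, and it can be old. The dimmest 40% of 35557 probe sets (mean log2 under 5.63) and the 12147 unnamed ones were left out, which left 15791. limma 3.58.1 in R 4.3.3 fitted 1 mean for each group over the 8 arrays (lmFit, eBayes) and was checked on simulated data, with two-sided p-values adjusted by Benjamini-Hochberg over all 15791 and called under 0.05. No detection calls entered, so depth is known only as brightness. The members, gene lists and tests were chosen with earlier results of these data known. Values on all 8 arrays are given for, in each comparison, up to 4 higher and 4 lower members of smallest p without overlap, for members past the threshold and for 15 members in every case. Other members named were chosen after their values were seen. The alternatives changed the normalization (a second quantile step or cyclic loess), the filter (none, or the dimmest 60%), the variance model (trended and robust, or array weights) and the samples in the fit (only 2 groups, the 6 arrays, or each mouse left out). They also took mouse numbers as a block and the mean over a gene's probe sets.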

Additional observations from a re-analysis of the deposited data

How the results depend on the processing

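For the up to 4 higher and 4 lower members of smallest p without overlap in each comparison, 635 of 635 values recomputed under the alternatives kept their direction and 632 kept their side of the threshold; the other 3, all against control in the 3 injected groups, passed only under an alternative. These were Slc25a37 with array weights (0.56) and on the 6 arrays (0.52), and Slc25a24 on the 6 arrays (0.35). The members counted were picked because their groups did not overlap on these same arrays. Leaving out mice could therefore not reverse their direction, and the agreement in direction is no support for them. Members that overlapped, such as Slc25a5 in MPTP against control (-0.82, and 0.26 on the 6 arrays), are not among the 635 values. With array weights the count of members past the threshold for the injected groups was thus 1, where 230 of 15791 probe sets passed. That of the F test over the groups was also 1 with these weights, where 558 probe sets passed. Medians over the members, which carry no test, did not keep their direction: 12 of 89 changed sign, 7 of them by less than the spread of the array medians (SD 0.09). That of acupoint against MPTP was 0.17 with the dimmest 60% left out. On the 6 arrays all 5 medians changed sign, to 0.055 in MPTP against control and in the injected groups, -0.02 in acupoint against MPTP, -0.0008 in non-acupoint against MPTP and -0.014 in acupoint against non-acupoint. Leaving out each mouse in turn gave medians of -0.17 (without MPTP mouse 2) to 0.055 (without MPTP mouse 1) in MPTP against control, -0.02 to 0.15 in acupoint against MPTP, -0.12 to 0.12 in non-acupoint against MPTP, -0.014 to 0.16 in acupoint against non-acupoint, and -0.09 to -0.04 in the injected groups. It left 0 members past the threshold in each of these comparisons.

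Mouse numbers did not pair the arrays: deviations of same-numbered mice correlated from -0.28 to 0.82 between groups, the highest for the 2 arrays that stood apart. With the mouse number as a replicate block, 0 of 40 members passed in each comparison by limma. Dim members are limited most by background, which RMA does not report.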
